A study of Homo sapiens with 12 samples.

Results

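Collagens are the main structural proteins of the extracellular matrix, and their genes were followed here in neural cultures made from the human embryonic stem cell lines H9 and H1. The collagen genes were taken as all protein-coding genes whose symbol has the form COL, a number, A and a number. There were 44 such genes, all of them found among the 63925 genes listed in the count tables. They comprised 11 fibrillar genes, 6 basement membrane genes (the type IV chains) and 27 others. Of the 44 genes, 39 had enough reads to be tested among 17819 genes in all: 10 of 11 fibrillar, 6 of 6 type IV and 23 of 27 other genes. The 5 that did not had few counted reads in both lines: COL11A2 had 1 read over the 12 libraries, COL6A5 had 6, COL10A1 had 14, COL6A6 had 26 and COL17A1 had 63. How reads that match several genes or either strand were counted is not known, so a low count may also reflect the counting.

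The 12 cultures fell into 4 groups of 3: H9 cells given dexamethasone, H9 cells given vehicle, H1 cells given dexamethasone and H1 cells given vehicle. Dexamethasone is a synthetic agonist of the glucocorticoid receptor. It was given at 1 µM in DMSO for 6 hours, and the vehicle was DMSO. Both lines had been kept as stem cells on mouse embryonic fibroblast feeders, turned into neural cells by inhibition of both SMAD branches and grown to 10 weeks. The later medium held ascorbic acid, cyclic AMP, BDNF and GDNF in every group; ascorbic acid is a cofactor of the enzymes that hydroxylate collagen. Each line was represented by sister cultures, so the spread behind each p-value is that among sister cultures of 1 line, with no second differentiation, and a difference between H9 and H1 is a difference between 1 line and 1 other line. Reads of feeder origin were not tested.

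Collagen chains wind together into a helix inside the cell, after hydroxylation of their prolines and lysines, and are assembled into higher structures outside it. Fibrillar collagens such as types I, III and V form the tensile fibrils of connective tissue and are made by fibroblasts and other mesenchymal cells, whereas type IV chains form the network of basement membranes. In the nervous system basement membranes line blood vessels and the pial surface, and the brain parenchyma holds little fibrillar collagen. The remaining collagens associate with fibrils, form beaded or hexagonal networks, span the cell membrane or carry the glycosaminoglycan chains of basement membranes.

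Expression was read as polyadenylated RNA in bulk, so that fewer cells of a type and less RNA per cell cannot be told apart. The libraries held 14751168 to 27505804 reads assigned to genes, and collagen genes took 0.305% to 0.693% of them. The library of H9 vehicle culture 3 was the smallest and stood apart from its sisters. Mitochondrial genes took 0.607% of its reads, where the other H9 cultures had 4.80% to 5.64%, and its collagen share was 0.689%, against 0.338% and 0.327% in H9 vehicle cultures 1 and 2. In that library 35 of the 39 tested collagens were at their highest among the H9 vehicle libraries, where 45.2% of all tested genes were. Its median log2 ratio to cultures 1 and 2 was 1.09 over the collagens and −0.00265 over all tested genes. Over the tested genes with a protein-coding transcript, this ratio climbed with GC content. Its medians were −0.526, −0.289, −0.0332, 0.244 and 0.561 over 5 bins of 2761 genes each, from the lowest to the highest GC. Of the 39 collagens, 19 lay in the highest bin. The part of base composition in the collagen values was not tested. For many, though not all, of the calls and values that this library moves, the value without it is given as well.

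Levels can be set between genes only per length of transcript, and they are given here as CPM (read counts relative to the scaled library size) per kilobase of exon. COL4A1, the chain found in nearly every basement membrane, was the leading collagen of H9 cells given dexamethasone at 46.4 CPM per kb. COL4A5 at 46.3 and COL6A1 at 45.6 CPM per kb stood beside it in those cells. The same 3 genes led in H9 vehicle cells, in another order: COL6A1 stood at 69.8 CPM per kb, COL4A1 at 62.4 and COL4A5 at 52.4. That order, with H9 vehicle culture 3 left out, became COL4A5 at 49.1, COL4A1 at 47.3 and COL6A1 at 42.7 CPM per kb. In H1 cells the first place went to COL1A1, the α1 chain of type I collagen, at 133 CPM per kb with dexamethasone and 143 with vehicle. COL1A1 ranked 18 among the collagens in H9 cells given dexamethasone and 16 in H9 vehicle cells, at 1.75 and 3.26 CPM per kb. COL4A5 ranked 2 and 3 in those H9 groups, and 13 in both H1 groups.

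The balance of classes therefore differed between the lines. Type IV chains made up 46.8% ± 1.1 and 44.5% ± 5.4 of the summed collagen CPM per kb in H9 cells with dexamethasone and vehicle, against 22.4% ± 4.0 and 24.5% ± 4.2 in H1 cells with dexamethasone and vehicle (SD, n = 3 each). Fibrillar chains made up 21.1% ± 0.37 and 22.1% ± 1.3 in the same H9 groups, against 55.5% ± 6.5 and 55.9% ± 5.4 in the H1 groups. For both classes the ranges of the 6 H9 and 6 H1 libraries did not overlap, and without H9 vehicle culture 3 the H9 vehicle shares were 47.5% for type IV and 21.8% for fibrillar chains. Taken per kilobase of coding sequence, the type IV shares were 55.7% and 54.1% in H9 cells and 31.0% and 33.5% in H1 cells, and the fibrillar shares 15.6% and 16.5% in H9 cells and 50.2% and 50.0% in H1 cells, so the levels of the shares depend on the length used and the order of the lines does not.

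**Figure D1:**
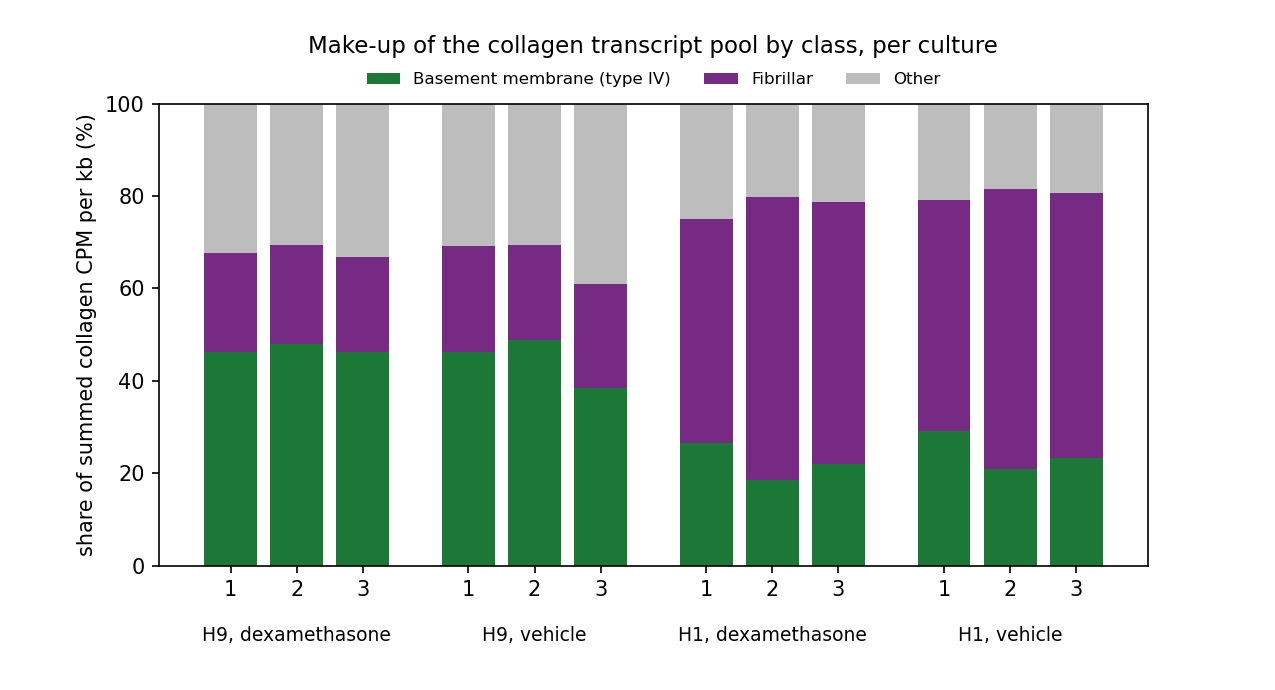
Stacked bars of the percent of summed collagen CPM per kb of exon taken by fibrillar, type IV and other collagens in each culture, with H9 cultures left of H1 and dexamethasone left of vehicle. Type IV chains held 38.4% to 48.8% in H9 cultures and 18.5% to 29.2% in H1 cultures, and fibrillar chains held 20.6% to 23.0% in H9 cultures and 48.5% to 61.2% in H1 cultures.

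Differences between the lines were tested with edgeR over all 17819 genes, at an adjusted p under 0.05. Among vehicle cultures 13 of the 39 collagens were higher and 10 lower in H9 than in H1, and 16 did not pass; 46.9% of all tested genes passed, 25.7% higher and 21.2% lower. Among dexamethasone cultures 9 were higher and 13 lower, and 17 did not pass, against 43.6% of all genes passing, 22.5% higher and 21.2% lower. The share of collagens that passed, 23 of 39 and 22 of 39, was somewhat above that background, which was itself large. Without H9 vehicle culture 3, which also narrows the spread used for every gene, 13 were higher and 18 lower among vehicle cultures and 12 higher and 21 lower among dexamethasone cultures, with 58.6% of all genes passing in the first case (30.1% higher, 28.6% lower) and 64.6% in the second (31.9% higher, 32.8% lower).

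The direction differed by class. Among vehicle cultures 2 fibrillar genes were higher and 5 lower of 10, 4 type IV genes were higher and 0 lower of 6, and 7 of the other genes were higher and 5 lower of 23. Among dexamethasone cultures the counts were 1 higher and 5 lower for fibrillar, 4 and 0 for type IV and 4 and 8 for other genes. Without H9 vehicle culture 3 the vehicle counts were 2 and 6 for fibrillar, 4 and 2 for type IV and 7 and 10 for other genes, and the dexamethasone counts were 2 and 6, 4 and 2, and 6 and 13. The median log2 fold change, H9 over H1, was −0.66 for fibrillar genes, 2.00 for type IV genes and 0.46 for the others, beside 0.0285 over all genes. Among dexamethasone cultures the medians were −0.99, 1.84 and −0.46 for fibrillar, type IV and other genes, beside −0.0146 over all genes. With H9 vehicle culture 3 left out, the vehicle medians were −1.12 for fibrillar, 1.72 for type IV and −0.18 for other genes, so the positive median of the other genes rested on that library. Over all 39 collagens the median was 0.33 among vehicle cultures, −0.31 there without H9 vehicle culture 3, and −0.44 among dexamethasone cultures. In both treatments 9 genes passed as higher, 10 passed as lower, and none passed in opposite directions. A set of 10 genes passed in both treatments in the full fit and in each fit with 1 library dropped: COL4A5, COL4A6, COL23A1 and COL25A1 were higher in H9, and COL1A1, COL1A2, COL2A1, COL5A1, COL6A3 and COL12A1 were lower. The shares of all tested genes that passed in both treatments, or in every such fit, are not given here. These counts therefore do not set collagens apart from other genes.

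**Figure D2:**
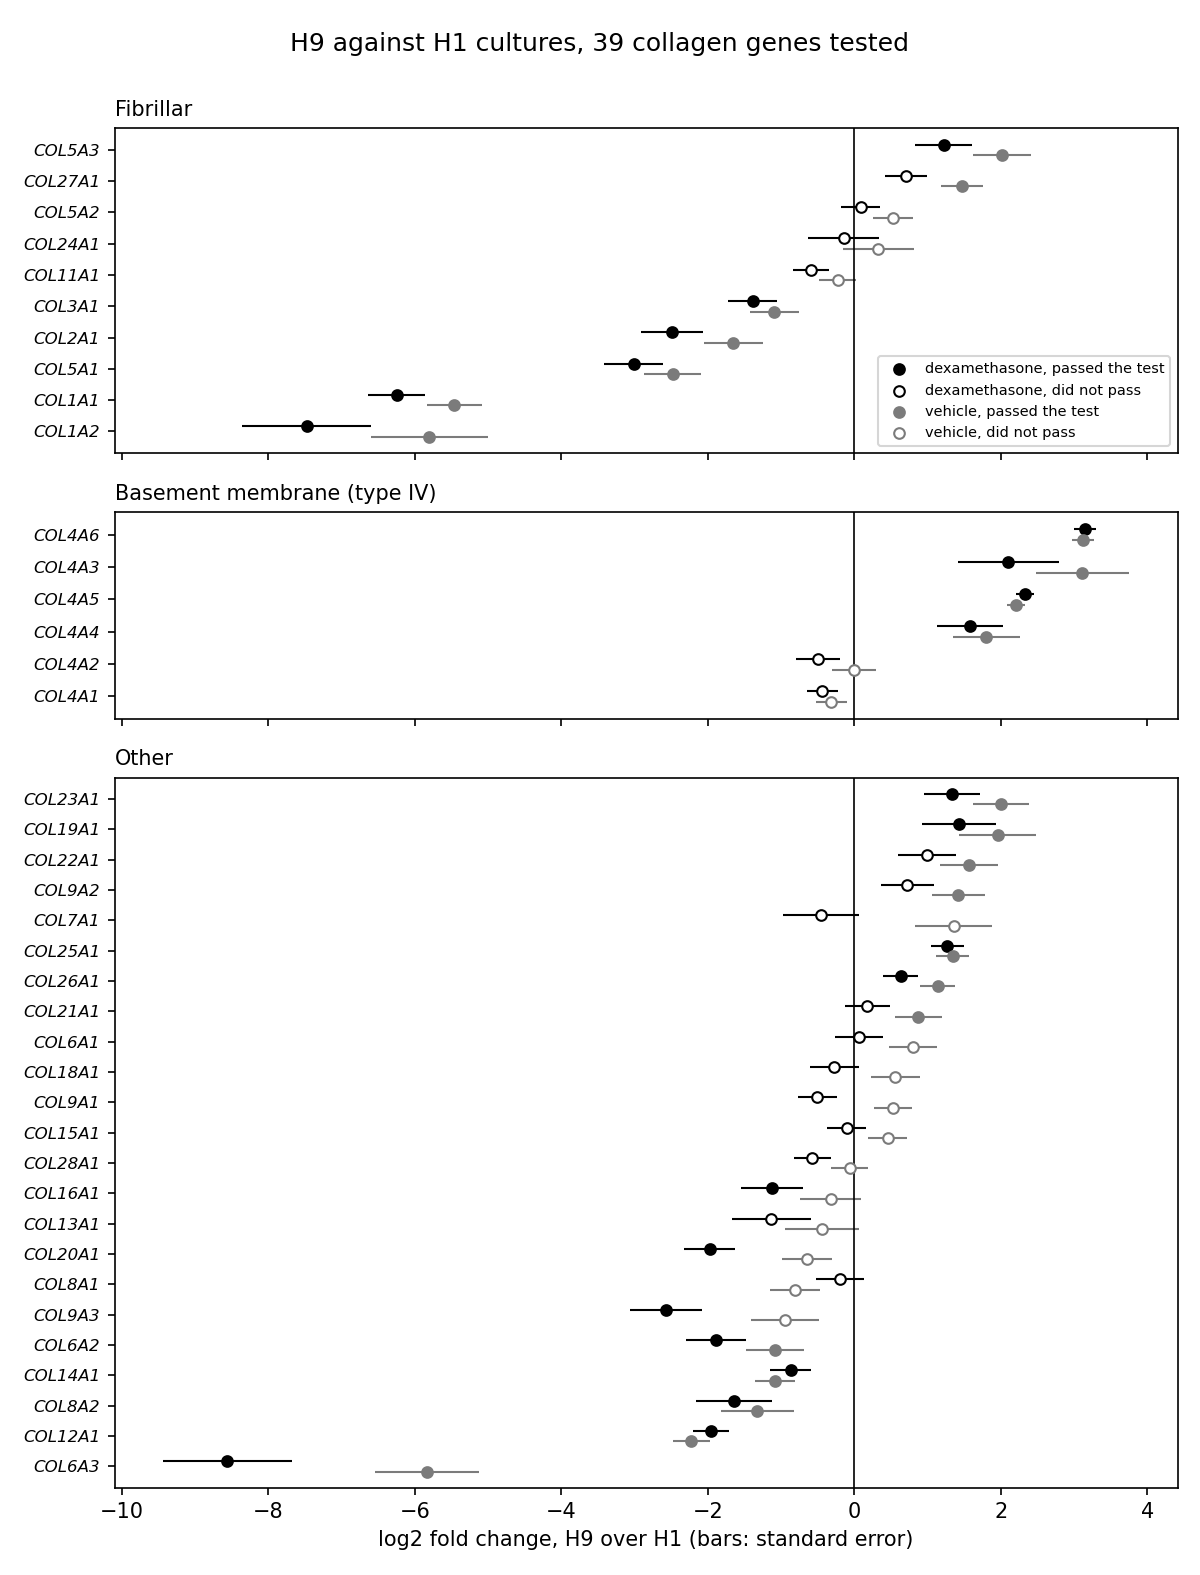
Log2 fold change of H9 over H1 for the 39 tested collagens in 3 panels by class, with dexamethasone cultures in black above vehicle cultures in grey, filled symbols for genes that passed the edgeR test and bars for the standard error. The type I chains COL1A1 and COL1A2 and the type VI chain COL6A3 lie farthest to the left, at −5.46 to −8.56, and COL4A6 lies farthest to the right at 3.12 and 3.16.

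Type I collagen, the main fibrillar collagen of skin, bone and tendon, is built of COL1A1 and COL1A2 chains. COL1A1 (chr17:50183289-50201632 in GRCh38, minus strand) measured 16.4, 19.3 and 16.0 CPM in H9 cells given dexamethasone and 39.1, 17.2 and 39.9 CPM in H9 vehicle cells. In H1 cells it measured 868, 1629.9 and 1422 CPM with dexamethasone and 999, 1694 and 1525 CPM with vehicle. Every H1 culture was far above every H9 culture, and culture 1 was the lowest H1 culture under both treatments. The log2 fold change of H9 over H1 was −5.46 ± 0.38 among vehicle cultures, or 44.0-fold lower (SE; edgeR adjusted p = 6.48e-07), and −6.24 ± 0.39 among dexamethasone cultures, or 75.9-fold lower (edgeR adjusted p = 2.66e-07).

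COL1A2 (chr7:94394561-94431232, plus strand) followed its partner chain. It measured 1.77, 3.09 and 1.42 CPM in H9 cells given dexamethasone and 18.2, 2.09 and 2.24 CPM in H9 vehicle cells, against 193, 535 and 392 CPM in H1 cells given dexamethasone and 258, 601 and 434 CPM in H1 vehicle cells. Culture 1 of the H9 vehicle group stood apart, at 450 reads, where the other 5 H9 cultures had 33 to 74. The H9 level was 55.7-fold lower among vehicle cultures (log2 −5.80 ± 0.79, edgeR adjusted p = 0.000116) and 178-fold lower among dexamethasone cultures (log2 −7.47 ± 0.88, edgeR adjusted p = 3.43e-05). The vehicle log2 fold change was −7.67 without H9 vehicle culture 1.

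COL3A1 (chr2:188974320-189012746, plus strand), which forms type III fibrils in soft and vascular tissue, differed less. It measured 134, 156 and 141 CPM in H9 cells given dexamethasone and 123, 145 and 285 CPM in H9 vehicle cells, against 214, 476 and 436 CPM in H1 cells given dexamethasone and 311, 493 and 373 CPM in H1 vehicle cells. Groups did not overlap within a treatment, but the highest H9 culture, vehicle culture 3, lay above the lowest H1 culture, dexamethasone culture 1. The log2 fold change was −1.09 ± 0.33 with vehicle (edgeR adjusted p = 0.0184) and −1.38 ± 0.34 with dexamethasone (edgeR adjusted p = 0.00557). The vehicle call was lost without H1 vehicle culture 2 (log2 −0.898, adjusted p = 0.0734) and without H9 vehicle culture 2 (log2 −0.949, adjusted p = 0.0583). Leaving out H9 vehicle culture 3 gave −1.55 ± 0.25 with vehicle.

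COL5A1, a chain of the type V collagen that regulates fibril diameter, measured 37.9, 32.2 and 38.5 CPM in H9 cells given dexamethasone and 42.8, 29.8 and 101 CPM in H9 vehicle cells. In H1 cells it measured 207, 380.0 and 289 CPM with dexamethasone and 235, 390.4 and 339 CPM with vehicle. All H9 cultures lay below all H1 cultures, and the log2 fold change was −2.48 ± 0.39 with vehicle (edgeR adjusted p = 0.000329) and −3.01 ± 0.40 with dexamethasone (edgeR adjusted p = 9.07e-05). The vehicle value was −3.15 without H9 vehicle culture 3. The other type V chains did not follow it. COL5A2, whose gene lies 19150 bases from COL3A1 on chromosome 2, measured 136 to 156 CPM in H9 cells given dexamethasone and 141 to 348 CPM in H9 vehicle cells, against 116 to 163 and 134 to 167 CPM in the H1 groups with dexamethasone and vehicle, and did not pass under either treatment. COL5A3 was higher in H9, at 13.3 to 20.2 CPM with dexamethasone and 14.9 to 50.3 CPM with vehicle, against 5.21 to 8.21 and 5.88 to 7.96 CPM in H1 cells. Its log2 fold change was 2.01 ± 0.40 with vehicle and 1.22 ± 0.39 with dexamethasone, and the vehicle value fell to 1.28 ± 0.19 without H9 vehicle culture 3.

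COL2A1, the cartilage fibrillar collagen that is also made by the notochord and early neural tissue, was scarce in both lines. It measured 3.11, 3.13 and 2.26 CPM in H9 cells given dexamethasone and 2.55, 4.34 and 12.2 CPM in H9 vehicle cells, against 15.4, 16.3 and 15.8 CPM in H1 cells given dexamethasone and 22.7, 17.6 and 17.6 CPM in H1 vehicle cells. No H9 culture reached an H1 culture, with H9 vehicle culture 3 the nearest. The log2 fold change was −1.65 ± 0.40 with vehicle (edgeR adjusted p = 0.0054), −2.48 ± 0.19 without that library, and −2.49 ± 0.42 with dexamethasone. COL27A1, a fibrillar collagen of cartilage, went the other way with vehicle, at 23.0 to 56.2 CPM in H9 cells and 10.1 to 13.9 CPM in H1 cells (log2 1.47 ± 0.29, and 0.94 ± 0.13 without H9 vehicle culture 3). COL27A1 did not pass with dexamethasone (log2 0.70, edgeR adjusted p = 0.0656), and did so without that library (edgeR adjusted p = 7.25e-05). COL24A1 did not pass under either treatment. COL11A1, a further cartilage fibril chain, passed in neither full comparison, but without H9 vehicle culture 3 it was lower in H9 with vehicle (log2 −0.68, edgeR adjusted p = 7.78e-05) and with dexamethasone (log2 −0.59, edgeR adjusted p = 7.62e-05).

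**Figure D3:**
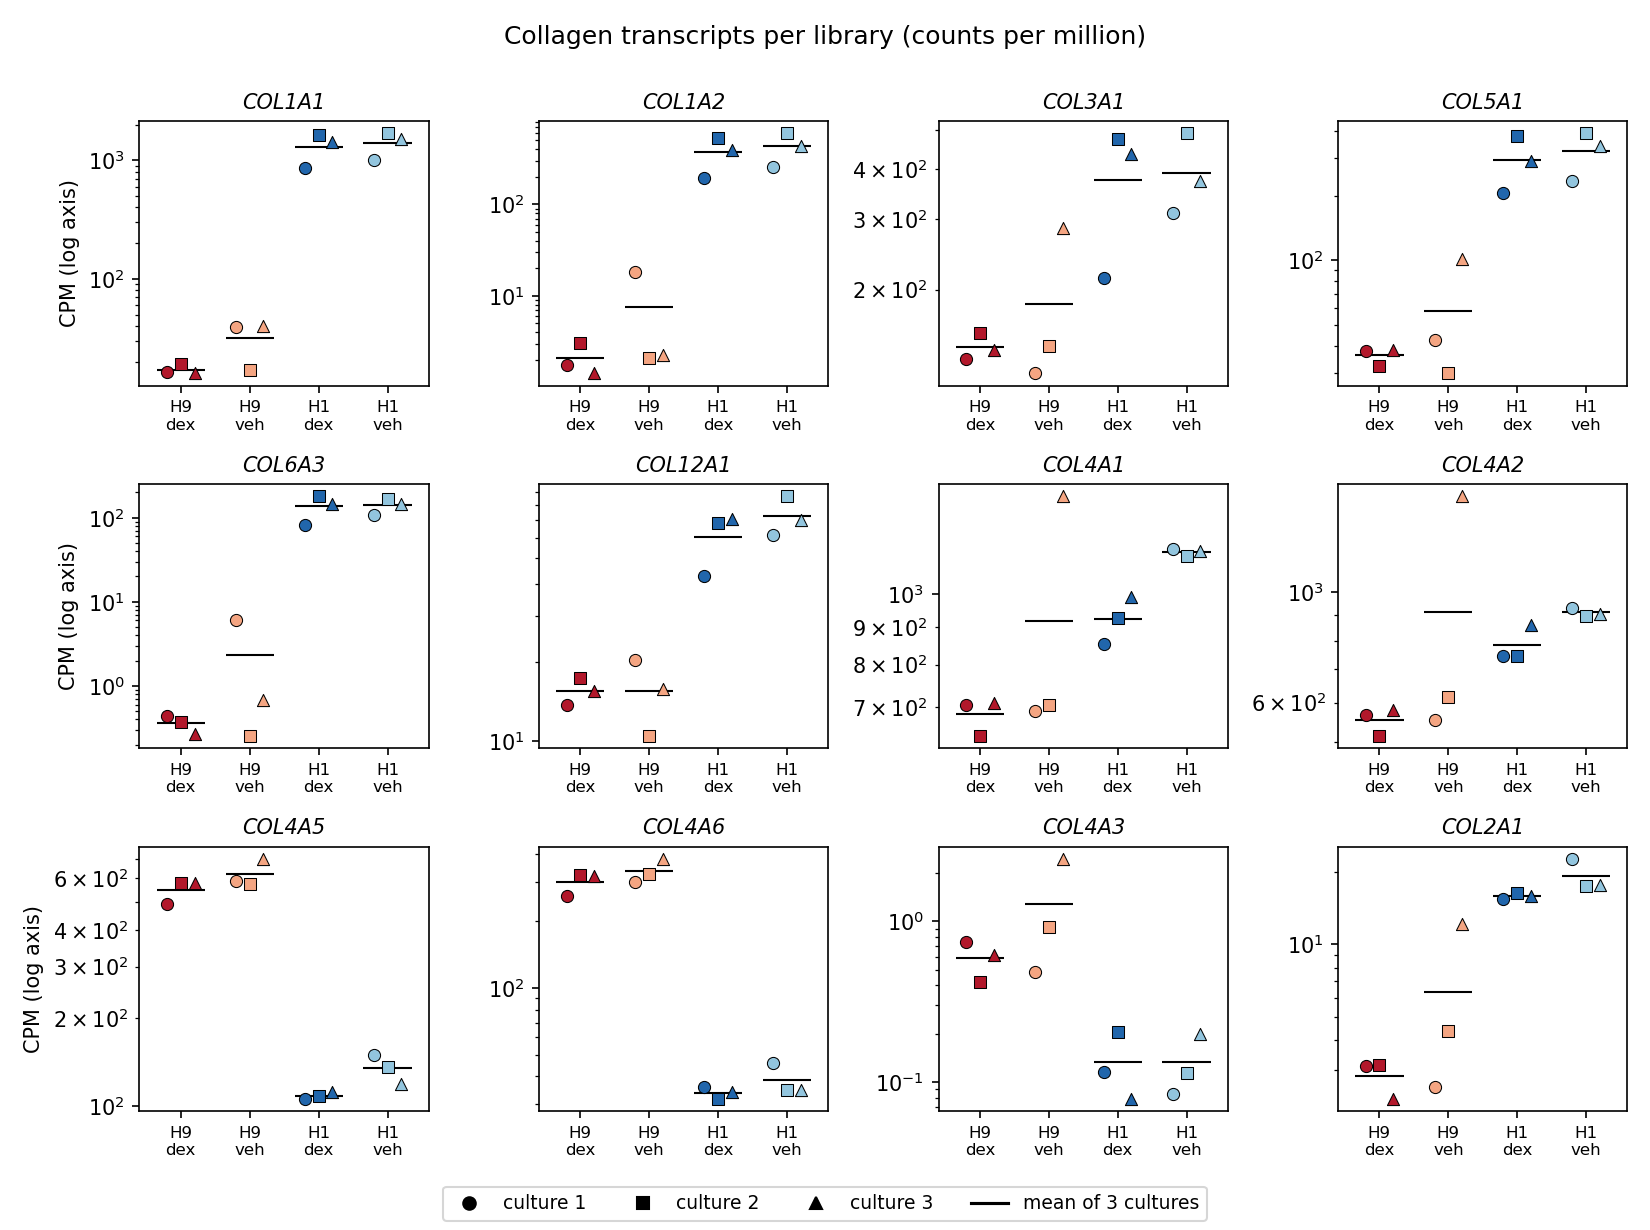
CPM of 12 collagens in each culture on a logarithmic axis, in the order H9 dexamethasone, H9 vehicle, H1 dexamethasone and H1 vehicle, with circles, squares and triangles for cultures 1, 2 and 3 and a line at the group mean. COL1A1, COL1A2 and COL6A3 differ between the lines by more than an order of magnitude, COL4A5 and COL4A6 differ the other way with tight groups, and the triangle of H9 vehicle culture 3 stands above its sisters for COL4A1 (1363 CPM) and COL2A1 (12.2 CPM).

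The type IV genes lie in head-to-head pairs that share a stretch of promoter, COL4A1 with COL4A2, COL4A3 with COL4A4 and COL4A5 with COL4A6. The starts of COL4A1 and COL4A2 in RefSeq lie 127 bases apart and those of COL4A6 and COL4A5 380 bases apart. Promoter windows of 300 bases, 250 before and 50 after the RefSeq start in GRCh38.p14, were available for 32 of the 44 genes; COL1A1, COL1A2, COL2A1, COL3A1, COL5A2, COL6A1, COL6A5, COL8A1, COL9A3, COL14A1, COL20A1 and COL22A1 had none. The windows of COL4A1, COL4A5 and COL4A6 are shown because these paired genes behaved differently from one another between the lines, and that of COL6A3 because that gene differed most. Sequences run 5′ to 3′ on the strand of the gene, and capitals mark the GC box GGGCGG and the CCAAT box on either strand.
COL4A1, chr13:110307108-110307407, minus strand: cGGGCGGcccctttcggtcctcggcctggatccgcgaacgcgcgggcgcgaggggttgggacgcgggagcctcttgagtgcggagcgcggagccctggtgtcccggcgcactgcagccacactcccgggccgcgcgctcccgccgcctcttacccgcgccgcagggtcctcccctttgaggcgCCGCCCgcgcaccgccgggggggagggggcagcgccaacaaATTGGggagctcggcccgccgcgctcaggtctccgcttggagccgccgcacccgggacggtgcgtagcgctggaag
COL4A5, chrX:108439588-108439887, plus strand: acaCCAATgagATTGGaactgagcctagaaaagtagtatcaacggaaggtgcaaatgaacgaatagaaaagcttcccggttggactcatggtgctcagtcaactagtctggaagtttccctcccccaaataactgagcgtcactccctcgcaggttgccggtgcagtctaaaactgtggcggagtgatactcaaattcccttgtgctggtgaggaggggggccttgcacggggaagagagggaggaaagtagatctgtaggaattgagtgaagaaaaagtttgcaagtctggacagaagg
COL4A6, chrX:108439409-108439708, minus strand: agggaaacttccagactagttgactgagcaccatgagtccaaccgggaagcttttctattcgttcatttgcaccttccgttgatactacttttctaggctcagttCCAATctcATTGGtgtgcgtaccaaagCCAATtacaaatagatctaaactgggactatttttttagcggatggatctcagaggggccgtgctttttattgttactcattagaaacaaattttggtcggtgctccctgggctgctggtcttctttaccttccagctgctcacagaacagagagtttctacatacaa
COL6A3, chr2:237414115-237414414, minus strand: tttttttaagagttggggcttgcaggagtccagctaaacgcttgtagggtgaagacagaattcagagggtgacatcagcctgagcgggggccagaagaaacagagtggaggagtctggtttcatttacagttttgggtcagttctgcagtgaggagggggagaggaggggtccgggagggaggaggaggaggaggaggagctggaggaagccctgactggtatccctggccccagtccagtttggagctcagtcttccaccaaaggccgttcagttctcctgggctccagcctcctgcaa
The windows of COL4A5 and COL4A6 overlap. The COL4A5 window held 2 CCAAT boxes and this COL4A6 window 3, while a second RefSeq window of COL4A6, not shown, held 0 CCAAT boxes and 1 GC box. The COL4A2 window overlaps that of COL4A1. Since some genes have several starts, the 32 genes had 44 windows, of which 24 (54.5%) held a GC box, 14 (31.8%) a CCAAT box, 8 (18.2%) a TATA box (TATAAA) and 5 (11.4%) the AGAACA motif of glucocorticoid receptor sites, each on either strand. Among all 34796 promoter windows of that length the shares were 44.9%, 34.6%, 11.6% and 14.8% in the same order. Windows with AGAACA belonged to COL5A1, COL9A1, COL28A1 and COL4A6, and the COL6A3 window held none of these motifs. A match of letters describes the window and does not show a binding site.

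COL4A5 and COL4A6, chains of the type IV networks of smooth muscle, kidney and other selected basement membranes, were the clearest collagens higher in H9. COL4A5 measured 490.3, 579 and 578 CPM in H9 cells given dexamethasone and 589, 575 and 699.7 CPM in H9 vehicle cells, against 106, 109 and 112 CPM in H1 cells given dexamethasone and 149, 136 and 119 CPM in H1 vehicle cells. COL4A6 measured 260.3, 323 and 321 CPM in H9 cells given dexamethasone and 300.3, 326 and 382 CPM in H9 vehicle cells, against 35.7, 31.6 and 34.1 CPM in H1 cells given dexamethasone and 46.0, 34.8 and 34.8 CPM in H1 vehicle cells. For both genes the lowest H9 culture was several times the highest H1 culture. COL4A6 was 8.72-fold higher in H9 with vehicle (log2 3.12 ± 0.15, edgeR adjusted p = 5.41e-08) and had a log2 fold change of 3.16 ± 0.15 with dexamethasone (edgeR adjusted p = 4.5e-08). COL4A5 was 4.61-fold higher with vehicle (log2 2.20 ± 0.12, edgeR adjusted p = 1.33e-07), with a log2 fold change of 2.34 ± 0.12 with dexamethasone (edgeR adjusted p = 8.32e-08). The ratio of COL4A5 to COL4A6, per kb of exon, was 1.40 to 1.47 and 1.38 to 1.54 in H9 cells with dexamethasone and vehicle, against 2.31 to 2.69 and 2.54 to 3.06 in H1 cells, so COL4A6 differed more than its pair partner and the ranges did not overlap.

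COL4A1 and COL4A2, the chains of the common type IV network, were abundant in both lines. COL4A1 measured 704, 638 and 709 CPM in H9 cells given dexamethasone and 691, 704 and 1363 CPM in H9 vehicle cells, against 854, 928 and 991 CPM in H1 cells given dexamethasone and 1153, 1127 and 1146 CPM in H1 vehicle cells. COL4A2 measured 567, 513 and 581 CPM in H9 cells given dexamethasone and 555, 615 and 1564 CPM in H9 vehicle cells, against 745, 745 and 858 CPM in H1 cells given dexamethasone and 932, 896 and 907 CPM in H1 vehicle cells. With vehicle, 2 of the 3 H9 cultures lay below and culture 3 above all H1 cultures, for both genes. Neither gene passed with all libraries: the log2 fold change with vehicle was −0.31 for COL4A1 (edgeR adjusted p = 0.246) and −0.000798 for COL4A2 (edgeR adjusted p = 0.999). Without H9 vehicle culture 3 the values were −0.71 (edgeR adjusted p = 4.02e-07) and −0.64 (edgeR adjusted p = 3.83e-06), so the result for this pair depends on that library. With dexamethasone, where every H9 culture was below every H1 culture for both genes, the log2 fold changes were −0.44 and −0.50, with edgeR adjusted p of 0.120 and 0.202; leaving the vehicle library out of the shared estimate of spread gave 1.54e-05 and 1.07e-05. The COL4A1 to COL4A2 ratio per kb was 1.60 to 1.63 and 1.14 to 1.63 in H9 cells with dexamethasone and vehicle, and 1.5 to 1.63 and 1.62 to 1.65 in H1 cells.

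COL4A3 and COL4A4, which join COL4A5 in the basement membrane of the kidney glomerulus, were near the limit of detection. COL4A3 had 41 and 70 reads in all in H9 cells with dexamethasone and vehicle, against 10 and 10 in H1 cells, and COL4A4 had 76 and 71 reads, against 27 and 25. COL4A3 measured 0.740, 0.417 and 0.614 CPM in H9 cells given dexamethasone and 0.486, 0.918 and 2.45 CPM in H9 vehicle cells, against 0.0781 to 0.206 CPM over the H1 cultures. COL4A4 measured 1.23, 0.668 and 1.34 CPM in H9 cells given dexamethasone and 1.05, 0.626 and 2.04 CPM in H9 vehicle cells, against 0.240 to 0.412 CPM over the H1 cultures. All 6 H9 cultures lay above all 6 H1 cultures for both genes. The log2 fold changes with vehicle were 3.12 ± 0.64 for COL4A3 and 1.80 ± 0.46 for COL4A4, or 2.35 ± 0.49 and 1.32 ± 0.41 without H9 vehicle culture 3. With dexamethasone the COL4A3 call (log2 2.10 ± 0.69, edgeR adjusted p = 0.0265) was lost when any of 4 libraries was dropped, at an adjusted p of 0.0651 to 0.0893.

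Among the other collagens the largest difference was in COL6A3 (chr2:237324003-237414375, minus strand), the long chain of the beaded type VI filaments. It measured 0.444, 0.376 and 0.268 CPM in H9 cells given dexamethasone and 6.00, 0.250 and 0.680 CPM in H9 vehicle cells, against 82.0, 181 and 146 CPM in H1 cells given dexamethasone and 109, 165 and 146 CPM in H1 vehicle cells. The H9 values rest on 9, 9 and 7 reads with dexamethasone and 148, 6 and 10 reads with vehicle, and culture 1 of the vehicle group was again the high one, as for COL1A2. The log2 fold change was −5.83 ± 0.71 with vehicle, or 57.1-fold lower in H9 (edgeR adjusted p = 4.95e-05), and −8.56 ± 0.88 with dexamethasone, or 377-fold lower (edgeR adjusted p = 1.15e-05). The vehicle value was −8.39 when H9 vehicle culture 1 was dropped.

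The other chains of type VI behaved differently. COL6A1 measured 246, 216 and 269.5 CPM in H9 cells given dexamethasone and 239, 218 and 663 CPM in H9 vehicle cells, against 219.6, 241 and 235 CPM in H1 cells given dexamethasone and 195, 236 and 211 CPM in H1 vehicle cells, with overlapping groups and no call. COL6A2 was lower in H9, at 19.0 to 22.2 CPM with dexamethasone and 15.7 to 62.5 CPM with vehicle, against 58.5 to 87.5 and 54.8 to 79.7 CPM in H1 cells. Its log2 fold change was −1.89 ± 0.41 with dexamethasone (edgeR adjusted p = 0.00272) and −1.08 ± 0.40 with vehicle (edgeR adjusted p = 0.0425, and −1.93 without H9 vehicle culture 3), the last of which held in only 3 of 12 fits with a library dropped. The ratio of COL6A1 to COL6A3 per kb was 2032 to 3689 in H9 cells given dexamethasone and 146 to 3585 in H9 vehicle cells, against 4.89 to 9.84 and 5.24 to 6.59 in H1 cells. The ratio of COL6A1 to COL6A2 was 11.5 to 12.3 and 10.7 to 14.0 in H9 cells, against 2.78 to 3.79 and 2.95 to 3.59 in H1 cells. Levels of the type VI chains were thus far from equal in H9 cultures and closer in H1 cultures.

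Fibril-associated collagens bind to the surface of fibrils. COL12A1, the member found with type I fibrils, measured 13.8, 17.4 and 15.5 CPM in H9 cells given dexamethasone and 20.4, 10.4 and 15.8 CPM in H9 vehicle cells, against 42.7, 68.3 and 70.5 CPM in H1 cells given dexamethasone and 61.1, 86.5 and 70.1 CPM in H1 vehicle cells. All H9 cultures lay below all H1 cultures, and H9 vehicle culture 3 did not stand out. The log2 fold change was −2.22 ± 0.25 with vehicle (edgeR adjusted p = 2.81e-05) and −1.96 ± 0.25 with dexamethasone (edgeR adjusted p = 6.54e-05). COL14A1, a relative of COL12A1, was also lower, by −1.08 ± 0.28 and −0.87 ± 0.27 on the log2 scale with vehicle and dexamethasone. COL19A1 was higher, by 1.96 ± 0.52 with vehicle (1.32 without H9 vehicle culture 3) and 1.43 ± 0.51 with dexamethasone, at 0.918 to 3.26 CPM in H9 cells over both treatments and 0.160 to 0.763 CPM in H1 cells, and its dexamethasone call held in only 5 of 12 fits with a library dropped. COL22A1, found at tissue junctions, and COL9A2, a chain of cartilage type IX, passed as higher in H9 with vehicle, at 1.56 ± 0.40 and 1.42 ± 0.36, or 0.72 ± 0.14 and 0.71 ± 0.15 without H9 vehicle culture 3. With dexamethasone their values were 1.00 and 0.73, which did not pass in the full fit (edgeR adjusted p = 0.0579 and 0.122) and passed in the fit without that library (3.53e-06 and 0.000192). COL9A3, a partner of COL9A2 in type IX, was lower in H9 given dexamethasone (log2 −2.57 ± 0.50), at 0.641, 0.835 and 0.652 CPM against 4.82, 3.83 and 4.06 CPM in H1 cells given dexamethasone, and COL20A1 was lower there too (−1.97 ± 0.35). With vehicle neither passed, at −0.94 and −0.65, and both did without H9 vehicle culture 3, at −2.01 and −0.89. COL16A1, a further fibril-associated collagen, was lower with dexamethasone (−1.12 ± 0.42), a call held in 4 of 12 fits with a library dropped, and with vehicle passed only without H9 vehicle culture 3 (−1.15 in place of −0.32). In that fit COL9A1 (−0.50) and COL28A1 (−0.57) were also lower with dexamethasone.

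Collagens that span the membrane include COL23A1 and COL25A1, the second of which is made by neurons and is known from motor innervation in mice and from amyloid plaques. COL25A1 measured 22.4, 18.8 and 21.7 CPM in H9 cells given dexamethasone and 22.7, 17.8 and 31.7 CPM in H9 vehicle cells, against 7.76, 11.6 and 6.68 CPM in H1 cells given dexamethasone and 9.91, 8.82 and 9.52 CPM in H1 vehicle cells. All H9 cultures were above all H1 cultures, and the log2 fold change was 1.35 ± 0.23 with vehicle and 1.27 ± 0.23 with dexamethasone (edgeR adjusted p = 0.000485 and 0.000718). COL23A1 was higher by 2.00 ± 0.38 with vehicle (1.35 without H9 vehicle culture 3) and 1.33 ± 0.38 with dexamethasone, and COL13A1, also a membrane collagen, did not pass in full, but was lower without H9 vehicle culture 3 with vehicle (−1.31, edgeR adjusted p = 0.00621) and with dexamethasone (−1.13, edgeR adjusted p = 0.00786). COL26A1, a secreted collagen, stood at 26.6 and 39.6 CPM per kb in H9 cells with dexamethasone and vehicle, against 17.1 and 17.9 CPM per kb in H1 cells, and was higher in H9 by 1.14 ± 0.24 and 0.64 ± 0.24 on the log2 scale with vehicle and dexamethasone. Without H9 vehicle culture 3 its H9 vehicle level was 28.9 CPM per kb and its vehicle log2 fold change 0.69 ± 0.091. The dexamethasone call of COL26A1 held in 3 of 12 fits with a library dropped. The network collagen COL8A2 was lower in H9 at under 2 CPM (−1.33 ± 0.50 with vehicle and −1.65 ± 0.52 with dexamethasone). Of 12 fits with a library dropped, its vehicle call held in only 4 and its dexamethasone call in 10. Its partner COL8A1 did not pass, except with vehicle once H9 vehicle culture 3 was dropped (−1.07, edgeR adjusted p = 0.00748). The basement membrane proteoglycan collagens COL15A1 and COL18A1, whose C-terminal fragment is endostatin, and COL7A1, which anchors the skin basement membrane, did not pass under either treatment. Dropping H9 vehicle culture 3 left COL15A1 uncalled and made COL18A1 (−0.27, edgeR adjusted p = 0.00329) and COL7A1 (−0.46, edgeR adjusted p = 0.00406) lower with dexamethasone. Of the exon bases of COL18A1, 16.4% lie within another gene, so part of its reads could be shared.

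Over the 12 libraries, 12 of the 39 collagens had all 6 H9 cultures above all 6 H1 cultures and 7 had all H9 cultures below, where 20.3% and 19.9% of all tested genes did so. The 12 higher ones were COL5A3, COL27A1, COL4A3, COL4A4, COL4A5, COL4A6, COL9A2, COL19A1, COL22A1, COL23A1, COL25A1 and COL26A1. The 7 lower ones, a share near that of all genes, were COL1A1, COL1A2, COL2A1, COL5A1, COL6A3, COL12A1 and COL14A1. H1 culture 1 was the lowest of its group under both treatments for 15 of the 39 collagens, against 14.8% of all genes; 6 of these were fibrillar and 0 type IV.

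Genes that act on or beside collagens were read from lists. Of 18 genes for chain modification and folding, 4 were higher and 5 lower in H9 with vehicle, and of 8 propeptide processing genes 3 were higher and 2 lower. PCOLCE, which enhances the cleavage of fibrillar procollagens, was lower by −3.07 ± 0.23 on the log2 scale, and ADAMTS3, a procollagen peptidase, was higher by 2.21. Of 6 cross-linking genes 0 were higher and 2 lower, namely LOX (−3.22 ± 0.37) and LOXL2 (−2.86 ± 0.28), lysyl oxidases that join collagen molecules. Of 11 tested partners of interstitial matrix 3 were higher and 6 lower, among them the small proteoglycan BGN (−4.80) and TGFBI, a collagen-binding matrix protein. TGFBI measured 0.732 ± 0.44 and 0.825 ± 0.90 CPM in H9 cells with dexamethasone and vehicle, against 61.9 ± 19 and 92.9 ± 29 CPM in H1 cells (SD, n = 3 each; log2 with vehicle −6.66 ± 0.56, edgeR adjusted p = 2.93e-06). Of 15 partners of basement membranes 5 were higher and 1 lower, with the laminin chain LAMA4 at 1.98. Of 9 receptors 0 were higher and 2 lower, with the collagen-binding integrin ITGA11 at −3.61, and of 9 degradation genes 4 were higher and 3 lower, with MMP14 at −1.92 and MMP1 at 2.09. Over these lists 19 genes were higher and 21 lower of 76, where 25.7% and 21.2% of all tested genes were, so the share called was near that of all genes. The counts without H9 vehicle culture 3 were 21 and 34, beside 30.1% and 28.6%. In that fit the higher and lower counts were 5 and 4 for basement membrane partners and 3 and 7 for interstitial partners. They were 4 and 9 for chain modification, 3 and 3 for propeptide processing and 0 and 4 for cross-linking. Receptors had 1 and 4, and degradation genes 5 and 3. Among dexamethasone cultures the full fit gave 5 and 2 for basement membrane partners and 3 and 5 for interstitial partners. Chain modification had 4 and 4 there, propeptide processing 2 and 2 and cross-linking 0 and 3. Receptors had 1 and 3 and degradation genes 5 and 3, beside 22.5% and 21.2% of all genes.

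Marker lists of other cell types moved with the lines as well. Of 11 tested mesenchymal markers 2 were higher in H9 with vehicle (TWIST1 and THY1) and 4 lower (POSTN, FAP, TBX18 and FBLN1), while PDGFRB, DCN, LUM, PDGFRA and PRRX1 did not pass. The summed CPM of that list was 146 to 161 and 139 to 171 in H9 cells with dexamethasone and vehicle, against 327 to 578 and 401 to 635 in H1 cells. POSTN, a matrix protein of fibroblasts, measured 2.07, 1.25 and 1.34 CPM in H9 cells given dexamethasone and 10.4, 1.59 and 0.680 CPM in H9 vehicle cells, against 125 to 336 CPM and 188 to 401 CPM in H1 cells. Its high H9 culture was vehicle culture 1, the one in which COL1A2 and COL6A3 were also high. The low H1 culture of POSTN was culture 1 under both treatments, as for COL1A1. FAP and FBLN1 did not peak in H9 vehicle culture 1. FAP measured 0.608 CPM there and 0.740 CPM in H9 dexamethasone culture 1. FBLN1 measured 22.45 CPM there and 25.4 CPM in H9 vehicle culture 3. In H1 cells FAP was lowest in culture 1 under both treatments, and FBLN1 with vehicle only. All 6 tested smooth muscle and pericyte markers were lower in H9 with vehicle and 5 of 6 with dexamethasone, where ACTA2 did not pass. Their summed CPM was 449 to 603 and 490 to 528 in H9 cells with dexamethasone and vehicle, against 725 to 919 and 896 to 991 in H1 cells, and MYH11 and DES were near 0 in every library. Of 8 endothelial markers 6 stayed below 1 CPM in every library. Neuronal markers (4 of 8), progenitor markers (2 of 5), astrocyte markers (3 of 6) and choroid plexus markers (3 of 6) had genes higher and 0 lower in H9 with vehicle; of cartilage markers 2 of 5 were higher and 1 lower, of Schwann cell and neural crest markers 2 of 4 were higher and 0 lower, and of 2 tested pluripotency markers 1 was higher and 1 lower. These lists are short, and of all genes 25.7% were higher and 21.2% lower in that comparison. The progenitor list without H9 vehicle culture 3 had 2 higher and 1 lower (FABP7), and NES, at 5541 CPM in that library, no longer passed. Among dexamethasone cultures the full fit gave 0 higher and 0 lower for Schwann cell and neural crest markers. Higher and lower counts there were 5 and 0 for neuronal, 2 and 0 for progenitor and 4 and 0 for astrocyte markers. Choroid plexus markers had 2 and 0, cartilage markers 2 and 2 and pluripotency markers 1 and 1, beside 22.5% and 21.2% of all genes. The neural identity of the cultures was visible in MAP2, DCX, STMN2, PAX6 and NES, whereas SOX2, HES5 and POU5F1 were listed at 0 in all libraries. The part of these cell types in the collagen differences was not tested.

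The response to 6 hours of dexamethasone was then read within each line. The treatment itself was visible in FKBP5, a standard target of the glucocorticoid receptor, which measured 28.2 ± 2.3 CPM with dexamethasone and 4.42 ± 0.57 CPM with vehicle in H9 cells (log2 2.68 ± 0.15, edgeR adjusted p = 1.24e-05). In H1 cells it measured 22.3 ± 3.1 CPM with dexamethasone and 5.53 ± 0.57 CPM with vehicle (log2 2.01 ± 0.15, edgeR adjusted p = 0.00021; SD of levels, n = 3 each). No collagen passed in H9 (0 of 39, against 0.0673% of all genes), in H1 (0 of 39, against 0.0505%) or over both lines (0 of 39, against 0.101%, 0.0954% higher and 0.00561% lower), and none differed between the lines in its response (0 of 39, against 0% of all genes). At an unadjusted p under 0.05 there were 12 collagens in H9, 1 in H1, 8 over both lines and 5 for the difference of the responses. Over all 17819 tested genes there were 2898, 526, 1335 and 1329 in the same order. DESeq2 and limma-voom also called 0 collagens in each of these contrasts. Over all genes DESeq2 called 166, 32, 116 and 0 in that order, and limma-voom 12, 8, 18 and 0.

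In H9 the collagens leaned downward, and the lean rested on 1 vehicle library. The median log2 fold change of dexamethasone over vehicle was −0.62, beside −0.0239 over all genes, and 37 of 39 values were negative. Without H9 vehicle culture 3 the median was −0.0536, beside −0.00901 over all genes, with 24 values negative and 15 positive. Of the 39 collagens, 6 then had an unadjusted p under 0.05, against 2009 of all 18098 tested genes. In that fit 0 collagens passed, against 0.293% of all genes (0.254% higher, 0.0387% lower). The lowest p in H9 was that of COL27A1, with 20.5, 16.3 and 18.6 CPM in cells given dexamethasone and 24.6, 23.0 and 56.2 CPM in vehicle cells. Its log2 fold change was −0.90 ± 0.28 (edgeR adjusted p = 0.299), and −0.37 ± 0.12 without vehicle culture 3; the 3 dexamethasone cultures were below the 3 vehicle cultures in either case. COL9A1, a type IX chain, measured 2.27, 1.88 and 2.65 CPM in H9 cells given dexamethasone and 3.00, 3.17 and 6.05 CPM in H9 vehicle cells, again with no overlap, and had −0.81 ± 0.27 (edgeR adjusted p = 0.299), and −0.44 without that library. COL6A3 had the farthest value, −2.76 ± 0.99 (edgeR adjusted p = 0.299), which rested on vehicle culture 1, since without it the value was −0.200. The COL1A2 value of −1.88 was likewise −0.00575 without vehicle culture 1.

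**Figure D4:**
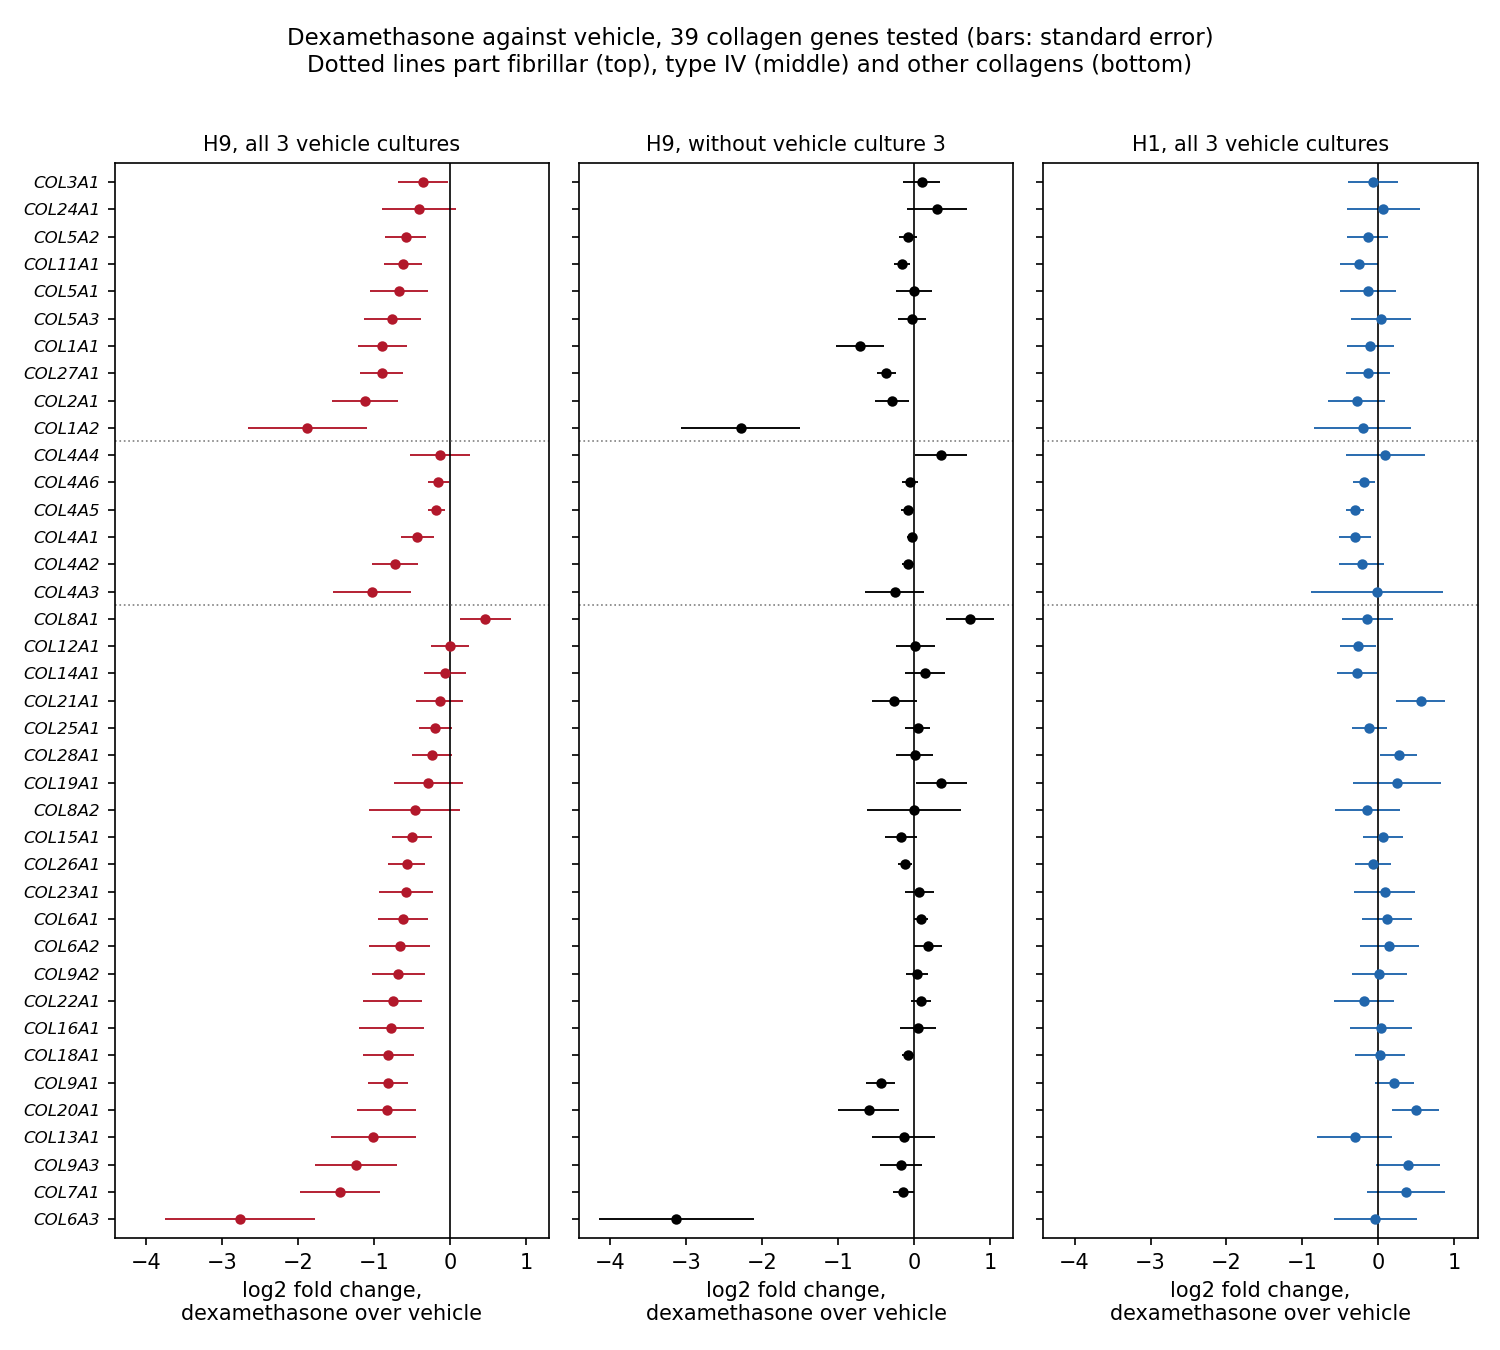
Log2 fold change of dexamethasone over vehicle for the 39 tested collagens, in panels for H9, for H9 without vehicle culture 3 and for H1, with bars for the standard error. In the first panel 37 of 39 values lie below 0 with a median of −0.62, and in the other panels the medians are −0.0536 and −0.0647.

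In H1 the median log2 fold change was −0.0647, beside −0.00204 over all genes, with 22 values negative and 17 positive. With 1 library left out the H1 median ran from −0.111 to 0.0568, so its sign depended on single libraries. The range in H9 was wider, from −0.88 to −0.0536. The type IV genes had a median of −0.20 and 5 of 6 were negative. COL4A5 had the lowest p of the collagens, with 106, 109 and 112 CPM in H1 cells given dexamethasone and 149, 136 and 119 CPM in H1 vehicle cells; the log2 fold change was −0.31 ± 0.12 (edgeR adjusted p = 1). COL4A1 measured 854, 928 and 991 CPM in H1 cells given dexamethasone and 1153, 1127 and 1146 CPM in H1 vehicle cells, with no overlap, at a log2 fold change of −0.31 ± 0.21 (edgeR adjusted p = 1). Its edgeR adjusted p became 0.0487 once H9 vehicle culture 3 no longer entered the shared estimate of spread (1 of 39 collagens called, against 0.326% of all genes, 0.166% higher and 0.16% lower), and 0.0899 when the H1 libraries were fitted alone. COL21A1, a fibril-associated collagen, and COL20A1 had the next lowest p values, with positive log2 fold changes of 0.56 ± 0.32 and 0.49 ± 0.31 (edgeR adjusted p = 1 for both). COL21A1 measured 1.58, 3.42 and 1.83 CPM in H1 cells given dexamethasone and 1.65, 1.68 and 1.28 CPM in H1 vehicle cells, so that 1 culture carried the difference.

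Over both lines the lowest p was again that of COL4A5, at −0.24 ± 0.083 (edgeR adjusted p = 0.579), followed by COL27A1 at −0.51 (edgeR adjusted p = 0.615) and COL11A1 at −0.43 (edgeR adjusted p = 0.631). Without H9 vehicle culture 3 the COL4A5 value was −0.20 (edgeR adjusted p = 0.181), and 0 collagens passed over both lines, against 0.774% of all genes (0.486% higher, 0.287% lower). Over the collagens the difference of the responses, H9 minus H1, had a median of −0.57, or 0.0239 without H9 vehicle culture 3. Over all genes the difference had medians of −0.0147 and −0.00768 in the same order. Its lowest p values were those of COL9A1 (−1.03 ± 0.37, edgeR adjusted p = 0.548), COL20A1 (−1.32 ± 0.50, edgeR adjusted p = 0.548) and COL7A1 (−1.81 ± 0.74, edgeR adjusted p = 0.548), and the COL7A1 value was −0.51 without that library. A p that misses the threshold does not show that dexamethasone left collagens at the same level. Of the collagen-modifying, partner, receptor and degradation genes 0 of 76 passed for dexamethasone over both lines. In the fit without H9 vehicle culture 3, ITGA2, a collagen-binding integrin chain, was lower (edgeR adjusted p = 0.00338) and TIMP4, an inhibitor of matrix proteases, was higher (edgeR adjusted p = 0.0319).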

How the data were processed

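The series holds polyadenylated RNA sequencing of 12 cultures. The deposited values are raw counts of reads per gene, made by the authors with STAR 2.5.3a and HTSeq on hg38 (GRCh38.p10), per the submitters' processing notes; the strand setting and annotation release were not given in the sources used here. The members and lists were chosen with earlier results of these data known. Genes were filtered with edgeR's filterByExpr, scaled by TMM and tested by edgeR 4.0.16's quasi-likelihood test (R 4.3.3) with 1 mean per group, 8 residual degrees of freedom and Benjamini-Hochberg adjustment over 17819 genes at 0.05. CPM were computed with the same scaled library sizes; lengths and gene coordinates came from GENCODE 29 and promoter windows from RefSeq. Replicate numbers were not taken to pair the samples. Full values were given for COL1A1, COL1A2, COL3A1, the type IV genes and, per contrast, the 8 called members with the largest log2 change or, where fewer than 3 were called, the 3 of lowest p; of other lists, the 6 called genes with the largest change. Further genes were named after their values were seen. Alternatives were DESeq2 1.42.0, limma 3.58.1, other scalings and filters, a replicate block and leaving out each library. Counts were also simulated with the spread per gene of the 12-library fit, and only genes with a mean CPM of at least 1 were changed. In the line contrast with vehicle, 71% of genes changed by 1 on the log2 scale and 98% of those changed by 2 were recovered. For dexamethasone in H9 the values were 83% and 98%. The simulated counts held no library set apart as H9 vehicle culture 3 was. These shares therefore do not show how often a collagen response of that size would be found in H9.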

Additional observations from a re-analysis of the deposited data

How the results depend on the processing

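The counts of collagens called were compared over other tools, scalings, filters, a replicate block and the removal of each library. The 1 combination of a block with the removal of H9 vehicle culture 3 was chosen after seeing the data. With 1 library left out, the number higher in H9 ran from 12 to 15 with vehicle and 4 to 12 with dexamethasone, and the number lower from 7 to 18 and 11 to 21. The number lower with dexamethasone in H1 ran from 0 to 1, and the other dexamethasone counts stayed at 0. Both highs of the lower counts, 18 and 21, came without H9 vehicle culture 3. Calls over all genes also peaked there, at 10608 of 18098 with vehicle and 11697 of 18098 with dexamethasone. Their lowest numbers with 1 library left out were 6711 of 18153 and 6108 of 18178. The low dexamethasone counts of 4, 4 and 5 higher collagens came without H9 dexamethasone culture 3, H1 dexamethasone culture 1 and H1 dexamethasone culture 3. DESeq2 called 15 collagens higher and 11 lower with vehicle and 11 and 13 with dexamethasone. Over all 17819 genes DESeq2 called 4726 higher and 4134 lower with vehicle, and 4234 and 3977 with dexamethasone. Over the matrix and modification lists 34 genes were lower without H9 vehicle culture 3. Coding length gave type IV shares of 55.7% and 54.1% in H9 and 31.0% and 33.5% in H1, and fibrillar shares of 15.6%, 16.5%, 50.2% and 50.0%.

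Over all tested genes, 18 correlations of the deviations of same-numbered cultures ran from −0.159 to 0.179, so the numbers were not taken as pairs, although H1 culture 1 was lowest in both H1 groups for 15 collagens. With the replicate block 12 collagens were higher and 10 lower with vehicle, 10 and 13 with dexamethasone, and 0 passed for dexamethasone in any contrast. Over all 17819 genes the block gave 4447 higher and 3791 lower with vehicle, and 3989 and 3745 with dexamethasone. For dexamethasone 9 of all genes passed in H9, 5 in H1 and 15 over both lines. Block and removal of H9 vehicle culture 3 together gave 17 collagens lower with vehicle, 21 lower with dexamethasone and 1 lower with dexamethasone in H1. Of all 18098 genes in that fit, 5243, 6027 and 71 were lower in the same order.

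Among the named members followed through every alternative, 13 values turned sign, and none of them was called. For COL4A2 with vehicle they were 0.0147 under a filter of 1 CPM in 3 libraries, and 0.216, 0.209 and 0.00774 without H9 vehicle culture 1, H9 vehicle culture 2 and H1 vehicle culture 1 (range with 1 library left out −0.641 to 0.216). For COL3A1 and dexamethasone in H9 they were 0.102 without vehicle culture 3 and 0.0646 with the block added (range −0.531 to 0.102), and over both lines 0.0182 without that library (range −0.313 to 0.0182). For dexamethasone in H1, without vehicle culture 2 and without dexamethasone culture 1, COL1A1 came to 0.0501 and 0.117 (lowest −0.301), COL1A2 to 0.109 and 0.104 (lowest −0.559), and COL3A1 to 0.133 and 0.216 (lowest −0.272). Over all 39 collagens, leaving out H9 vehicle culture 3 turned the sign of 2 values with vehicle between the lines, 13 for dexamethasone in H9, 12 over both lines and 16 for the difference of the responses, and 0 of these were called in either fit. It changed the call of 8 collagens with vehicle and 11 with dexamethasone. The cause was not tested. Depth limits among others COL4A3, COL4A4, COL8A2 and, in H9, COL6A3 and COL20A1, where COL8A2 had 23 reads in the dexamethasone group.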
